A study of Mus musculus with 10 samples.

Results

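The mitosis genes described here are 38 genes chosen by name, whose products condense the chromosomes, build the spindle, hold the checkpoint, start anaphase and divide the cell. All 38 were among the 20611 genes listed, and all 38 had enough counts to be tested, as did 14861 genes in all. They lie on 15 chromosomes, at most 6 on any of them. Their transcripts were measured by mRNA sequencing of skin from 10 mice, 5 Klk6+ and 5 WT, with 3 males (replicates 1 to 3) and 2 females (replicates 4 and 5) in each genotype. Klk6+ mice carried a Myc/His-tagged mouse Klk6 transgene under a tetracycline operator together with the K5-tTA driver, in which a bovine keratin 5 promoter directs a tetracycline transactivator to keratinocytes and some other stratified epithelia, so that the secreted protease KLK6 is made without doxycycline. WT mice were littermates that could be wild type or carry only 1 of these transgenes. The lines were backcrossed to C57BL/6, and matings that gave Klk6+ mice were kept on doxycycline because matings without it had given no transgenic young. Per the labels, Klk6+ mice were close to moribund when doxycycline chow was brought back (weeks 10 to 11), and tissues were collected in weeks 14 to 16. The labels do not place the sequenced skin samples within that course. Klk6 itself stood at 12.7 to 26.5 CPM (counts scaled to effective library size) in WT and at 10290 to 14770 CPM in Klk6+, so every library matched its label.

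Mitosis is driven by Cdk1 bound to cyclins A and B, and it ends when the anaphase-promoting complex, a ubiquitin ligase, marks cyclin B and securin for destruction. Most genes of this programme are silent in resting cells and are transcribed together in G2, under the MuvB complex with B-MYB and FOXM1, which binds the cell cycle homology region (CHR) of their promoters beside CCAAT boxes bound by NF-Y. In healthy skin, dividing cells are mainly those of the basal epidermis, the sebaceous gland and, in the growth phase, the hair matrix. A thickened epidermis with more dividing keratinocytes is a textbook feature of psoriasis.

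In Klk6+ skin 37 of the 38 mitosis genes were higher than in WT and 1 was lower, by edgeR's quasi-likelihood test with sex as a covariate and adjusted p below 0.05 over all genes. Among all genes tested 72.8% were called, 37.7% higher and 35.1% lower. The median log2 fold change was 2.46 over the 38 genes and 0.04 over all genes. The rise was at least 2-fold for 36 members (15.7% of all genes) and at least 4-fold for 28 (5.79% of all genes), and it was steepest for Cdc20 at 11.6-fold. The exceptions were a pair of genes that act at the same step. Pttg1, which encodes securin, fell, and Espl1, which encodes its target separase, rose least, by 1.43-fold. For 37 of the 38 genes every mouse of one genotype lay beyond every mouse of the other (57.0% of all genes), Espl1 being the exception. Of these 37 genes, 36 were higher in Klk6+ (30.1% of all genes).

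**Figure D1:**
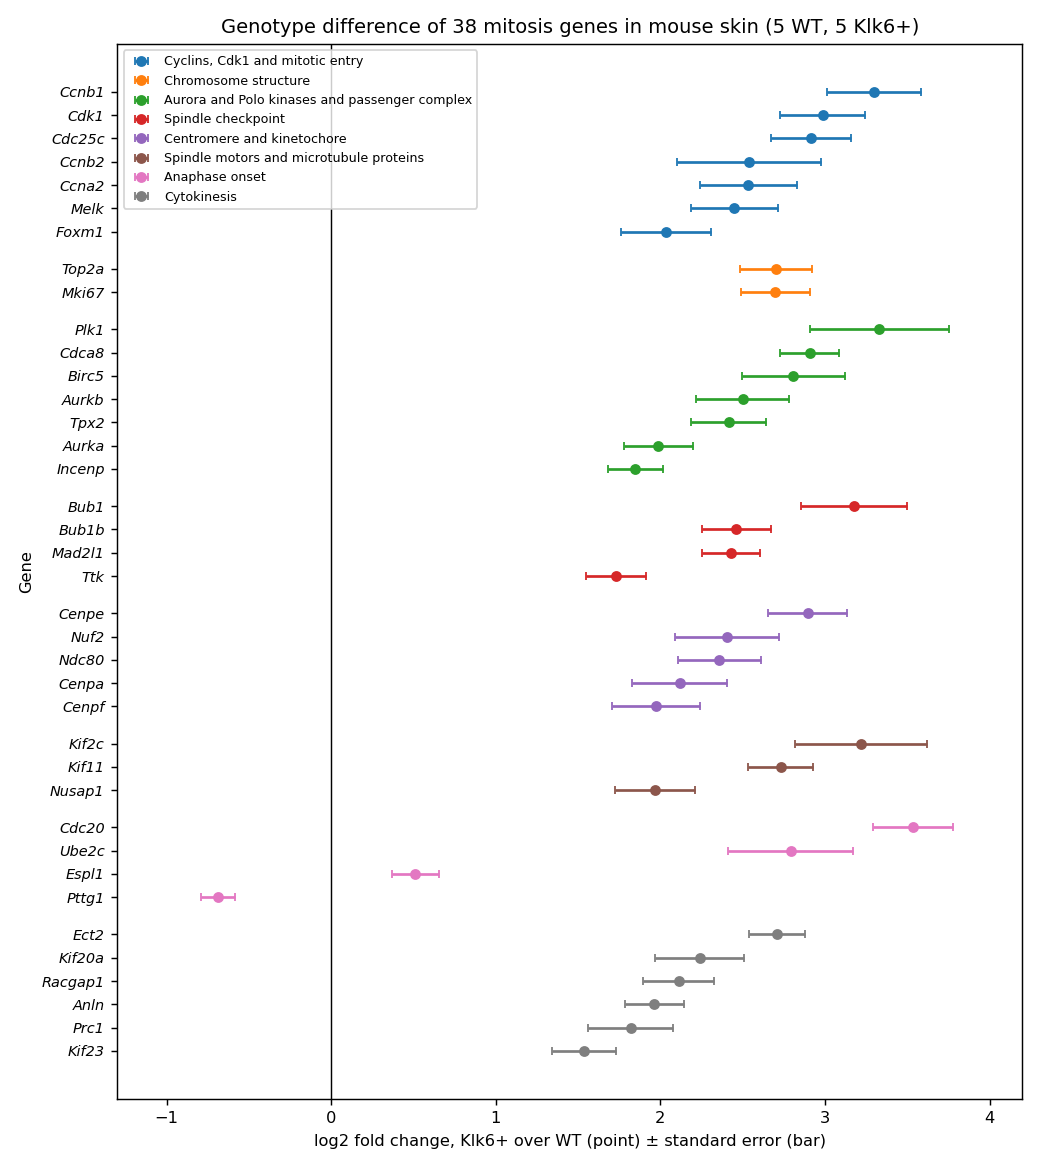
Log2 fold change of each mitosis gene, Klk6+ over WT, on the horizontal axis, with its standard error as a bar (edgeR, 5 mice per genotype) and the genes grouped by role on the vertical axis. All genes but Pttg1 (-0.69) lie to the right of 0, and Espl1 (0.51) is the only other one near it.

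Many members held the CHR and CCAAT elements, which were searched because they are textbook elements of G2 and mitosis gene promoters. A high share among such genes is therefore no independent result. Of the 31 genes with an entry in the RefSeq promoter table (GRCm38.p6, 250 bases before to 50 after the annotated start), 22 (71%) held the CHR element TTTGAA on either strand, against 14.8% of the 11251 tested genes with an entry and 20.2% of all 27025 genes in the table. The CCAAT box, searched as CCAAT on either strand, was in 22 (71%), against 42.1% of tested genes and 41.1% of all genes. Both elements were in 19 (61.3%), against 6.08% of tested genes and 7.97% of all genes. These letter matches describe the window and do not show binding. The 120 bases before the RefSeq start are shown for 6 genes that rose and for the separase and securin genes. The 6 are not the steepest. Plk1 (3.33, log2), Kif2c (3.22) and Bub1 (3.18) rose more than Cdk1, Top2a, Kif11 and Ube2c and are not shown. Each stretch runs 5′ to 3′ on the gene's own strand, with CHR and CCAAT matches in capitals.
Cdc20 (chr4:118437344-118437463, minus strand): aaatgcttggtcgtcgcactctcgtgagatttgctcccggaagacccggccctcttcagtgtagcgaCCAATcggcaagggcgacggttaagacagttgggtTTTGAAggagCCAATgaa
Ccnb1 (chr13:100786487-100786606, minus strand): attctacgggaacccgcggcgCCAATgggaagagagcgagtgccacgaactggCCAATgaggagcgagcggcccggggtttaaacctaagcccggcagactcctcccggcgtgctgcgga
Cdk1 (chr10:69352913-69353032, minus strand): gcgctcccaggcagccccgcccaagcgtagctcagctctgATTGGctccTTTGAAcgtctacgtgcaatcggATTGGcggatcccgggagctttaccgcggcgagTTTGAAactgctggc
Top2a (chr11:99024190-99024309, minus strand): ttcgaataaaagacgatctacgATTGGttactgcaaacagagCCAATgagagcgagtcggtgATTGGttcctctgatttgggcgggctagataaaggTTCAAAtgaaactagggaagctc
Kif11 (chr19:37376262-37376381, plus strand): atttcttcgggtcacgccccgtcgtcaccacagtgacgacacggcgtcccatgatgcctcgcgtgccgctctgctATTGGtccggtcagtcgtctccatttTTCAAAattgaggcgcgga
Ube2c (chr2:164769809-164769928, plus strand): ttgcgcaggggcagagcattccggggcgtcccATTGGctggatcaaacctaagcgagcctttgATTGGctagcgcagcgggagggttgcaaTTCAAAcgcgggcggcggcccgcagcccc
Espl1 (chr15:102296173-102296292, plus strand): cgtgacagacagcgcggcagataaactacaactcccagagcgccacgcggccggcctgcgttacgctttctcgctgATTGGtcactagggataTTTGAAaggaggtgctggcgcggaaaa
Pttg1 (chr11:43425982-43426101, minus strand): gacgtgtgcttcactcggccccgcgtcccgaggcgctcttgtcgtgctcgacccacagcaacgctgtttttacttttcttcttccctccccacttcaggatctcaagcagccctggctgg
Cdc20, Cdk1, Top2a, Kif11 and Ube2c carry CHR and CCAAT matches in this stretch, and Ccnb1 carries CCAAT matches only. Espl1 also carries a match to each element although it rose by only 0.51 ± 0.14 on the log2 scale, and the printed stretch of Pttg1 holds neither. The Pttg1 stretch lies wholly inside the gene as GENCODE places it, downstream of the GENCODE start, and does not describe the bases before that start. Those of Ccnb1, Cdc20, Cdk1, Ube2c and Espl1 lie partly inside their genes by the same annotation. Over the whole window of 250 bases before to 50 after the start, Birc5, Mad2l1, Melk, Nuf2, Nusap1 and Pttg1 held neither element. Of these, all but Pttg1 rose, by 2.81, 2.43, 2.45, 2.40 and 1.97 (log2) in that order. Bub1 (3.18) held no CHR match and Kif2c (3.22) no CCAAT match. The windows of Kif2c and of Cdca8, which is counted among the genes with both elements, lie wholly inside their genes by GENCODE. Like that of Pttg1, they do not describe the bases before the GENCODE start. Any link between these elements and the size of the rise was not tested.

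The 38 genes together made up 0.0275% ± 0.00866 of a WT library's counts and 0.129% ± 0.0118 of a Klk6+ library's (mean ± SD, 5 mice each), a ratio of 4.71. Total counts were 26521019 to 41970272 per library, and the lowest summed count of the members was 6537. In WT the share was 0.0299%, 0.0243%, 0.022%, 0.0415% and 0.0198% in mice 1 to 5. In Klk6+ it was 0.115%, 0.12%, 0.138%, 0.144% and 0.13%. WT 4 stood above the other WT mice and well below every Klk6+ mouse. It held the highest WT level of 32 of the 38 genes, and WT 5, the other WT female, held the lowest of 25. Without WT 4 the median log2 fold change of the members was 2.72, the ratio of shares was 5.4 and the counts called were again 37 and 1. In whole skin, more dividing cells and more of these transcripts per cell cannot be told apart.

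The spread between mice was wider in WT. The coefficient of variation of a member's CPM had a median of 39.0% in WT (5.94% to 91.5%) and of 11.3% in Klk6+ (6.43% to 20.4%), and it was larger in WT for 37 of the 38 genes. Pttg1 was the exception, with the smallest spread of any member in WT. The same count was not made over all genes. Every member but Pttg1 also had its lower mean CPM in WT, and the part of low counts in this spread was not tested. Without WT 4 the WT median was 25.7% (4.03% to 57.3%), the value of Ccnb2 went from 91.5% to 27.0%, and 35 of the 38 genes had the larger spread in WT. Among Klk6+ mice, Klk6+ 3 was highest for 19 genes and Klk6+ 4 for 14, while Klk6+ 1 was lowest for 22. This order describes the 5 libraries and was not tested.

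**Figure D2:**
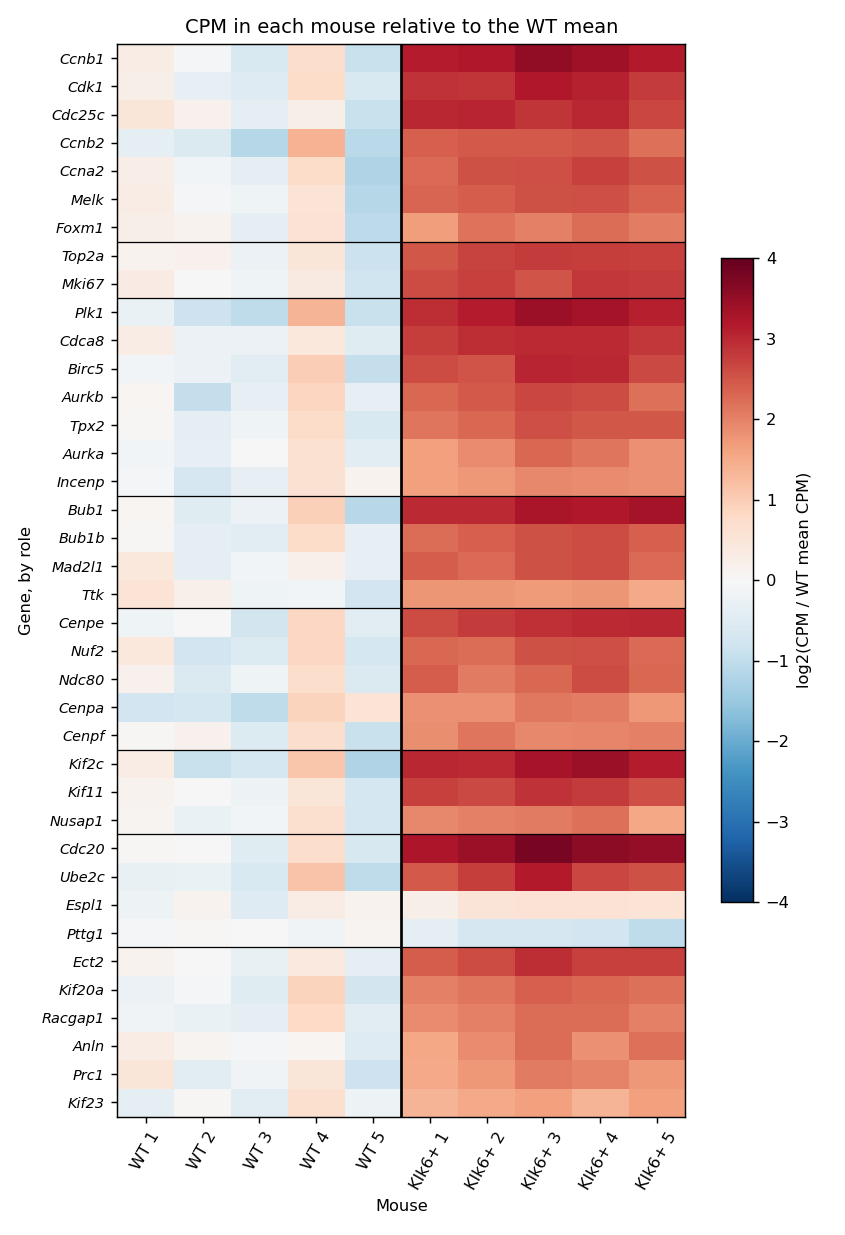
Level of each mitosis gene (vertical axis, grouped by role) in each of the 10 mice (horizontal axis), coloured by log2 of its CPM over the mean CPM of the 5 WT mice. The WT 4 column is red for most genes and the Klk6+ columns are darker red throughout, apart from pale Espl1 and blue Pttg1.

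All 7 genes of mitotic entry rose (median log2 fold change 2.54), which is to say the cyclins, Cdk1, the phosphatase gene Cdc25c that activates Cdk1, the transcription factor gene Foxm1 and the kinase gene Melk. Ccnb1, which encodes cyclin B1 (chr13:100778650-100786570, minus strand, GRCm38), stood at 6.80, 5.32, 3.68, 9.07 and 2.99 CPM in WT mice 1 to 5 and at 48.8, 51.9, 65.3, 58.2 and 49.9 CPM in Klk6+ mice 1 to 5. The lowest Klk6+ mouse was 5.38 times the highest WT mouse, and the gene rose by 3.30 ± 0.28 (log2, SE; adjusted p = 4.03e-06). Cdk1 rose by 2.99 ± 0.26 and Cdc25c by 2.92 ± 0.24, from 0.774 ± 0.263 to 5.86 ± 0.622 CPM, the lowest WT level in CPM of the 38. The rises of Ccna2 (cyclin A2, 2.54 ± 0.30), Melk (2.45 ± 0.27) and Foxm1 (2.03 ± 0.27) were smaller. Ccnb2, for cyclin B2, stood at 4.07, 3.47, 2.33, 13.5 and 2.45 CPM in WT and at 27.3, 28.2, 28.4, 29.5 and 23.7 CPM in Klk6+. WT 4 was over 3 times any other WT mouse for Ccnb2, while the Klk6+ mice lay close together, and the rise was 2.54 ± 0.44 (adjusted p = 0.000424), or 3.18 without WT 4.

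The proliferation marker Mki67, whose protein coats mitotic chromosomes, and Top2a, whose enzyme untangles DNA, rose alike. Top2a stood at 23.7, 24.3, 18.5, 30.2 and 12.03 CPM in WT and 122, 141, 152, 146 and 146 CPM in Klk6+, the highest CPM of any member in each Klk6+ mouse. It rose by 2.70 ± 0.22 (adjusted p = 2.8e-06). Mki67 (chr7:135689784-135716361, minus strand) stood at 23.6, 18.9, 16.99, 24.5 and 10.9 CPM and 116, 126, 108, 135 and 132 CPM and rose by 2.70 ± 0.21 (adjusted p = 2.01e-06). For these 2 genes WT 5 was the lowest mouse, and the genotypes were more than 4-fold apart at their closest values.

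Genes of the Aurora and Polo kinases and of the chromosomal passenger complex, which corrects chromosome attachment and later guides cytokinesis, all rose (7 of 7, median 2.50). Plk1, for Polo-like kinase 1, stood at 2.48, 1.66, 1.47, 7.64 and 1.61 CPM in WT and at 22.9, 26.4, 31.9, 30.1 and 25.4 CPM in Klk6+, and rose by 3.33 ± 0.42 (adjusted p = 4.93e-05). WT 4 again lay far above the other WT mice, and the rise was 3.92 without it. Within the passenger complex the 4 genes rose by different amounts. Birc5, for survivin, stood at 3.67, 3.32, 2.93, 7.75 and 2.03 CPM and 24.3, 22.8, 32.3, 31.9 and 24.6 CPM and rose by 2.81 ± 0.31, Cdca8 (borealin) by 2.91 ± 0.18 and the kinase gene Aurkb by 2.50 ± 0.28. Incenp, the scaffold, rose by 1.85 ± 0.17, the least of the 4, and had the highest WT level of them in CPM. Aurka, the spindle pole kinase, rose by 1.99 ± 0.21 and its activator gene Tpx2 by 2.42 ± 0.23.

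The 4 spindle checkpoint genes, whose products hold anaphase until every chromosome is attached, rose with a median of 2.44. Bub1 stood at 1.81, 1.25, 1.47, 3.34 and 0.806 CPM in WT and 13.7, 13.9, 16.9, 15.9 and 17.6 CPM in Klk6+, a rise of 3.18 ± 0.32 (adjusted p = 1.08e-05). Mad2l1, the checkpoint protein MAD2 that binds CDC20, stood at 6.89, 3.90, 4.75, 5.85 and 4.06 CPM and 27.3, 24.6, 29.5, 31.2 and 24.4 CPM, a rise of 2.43 ± 0.18 (adjusted p = 1.52e-06). Its highest WT mouse was WT 1 and not WT 4, as for Cdc25c, Ttk, Prc1 and Anln. Bub1b, for BUBR1, rose by 2.46 ± 0.21. Ttk, for the kinase MPS1, rose by 1.73 ± 0.18, the least of the group, and its genotypes were 1.97-fold apart at their closest values.

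Centromere and kinetochore genes, which join chromosomes to microtubules, rose in 5 of 5 cases (median 2.36). Cenpe, a kinetochore motor, stood at 2.32, 2.60, 1.55, 4.62 and 1.97 CPM in WT and 15.8, 18.2, 19.7, 20.8 and 21.2 CPM in Klk6+ and rose by 2.89 ± 0.24 (adjusted p = 3.22e-06). The NDC80 complex genes Ndc80 and Nuf2 rose by 2.36 ± 0.25 and 2.40 ± 0.32, and Cenpf by 1.98 ± 0.27. Cenpa, for the histone H3 variant that marks centromeres, stood at 4.82, 4.96, 4.01, 15.01 and 11.9 CPM in WT and 29.2, 28.99, 35.04, 33.8 and 26.8 CPM in Klk6+, a rise of 2.12 ± 0.29 (adjusted p = 8.1e-05). Both WT females were more than 2-fold above all WT males for Cenpa, and the Klk6+ sexes overlapped. Incenp and Espl1 were the other members with both WT females above the WT males, by smaller gaps.

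Among spindle motors and microtubule proteins, Kif11, the motor that pushes spindle poles apart, stood at 7.60, 6.88, 5.89, 9.57 and 4.18 CPM in WT and 45.1, 42.96, 50.3, 47.9 and 40.4 CPM in Klk6+ and rose by 2.73 ± 0.20 (adjusted p = 1.5e-06). Kif2c, a microtubule depolymerase at centromeres, stood at 2.46, 1.06, 1.23, 4.30 and 0.866 CPM and 15.9, 15.8, 19.6, 21.8 and 17.4 CPM and rose by 3.22 ± 0.40 (adjusted p = 4.63e-05), or by 3.71 without WT 4. Nusap1, which bundles spindle microtubules, rose by 1.97 ± 0.24. In all 3 genes every Klk6+ mouse exceeded every WT mouse.

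The genes of anaphase onset split. Cdc20 (chr4:118432901-118437352, minus strand), the activator of the anaphase-promoting complex, stood at 5.54, 5.37, 3.89, 8.78 and 3.46 CPM in WT and 51.1, 59.4, 74.8, 64.5 and 61.8 CPM in Klk6+, a rise of 3.53 ± 0.24 (adjusted p = 1.15e-06). Its lowest Klk6+ mouse was 5.82 times its highest WT mouse, the widest gap of the 38 genes. Ube2c, the ubiquitin-conjugating enzyme of the same complex, rose by 2.79 ± 0.38, from 5.24 ± 3.64 to 35.1 ± 7.17 CPM. Of the exonic bases of Ube2c, 22.8% are shared with Tnnc2, a skeletal muscle gene on the other strand that fell from 2867 to 235 CPM, and the part of such reads in the Ube2c values was not tested.

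Pttg1 (chr11:43420250-43426251, minus strand) stood at 26.9, 28.7, 28.1, 25.4 and 29.6 CPM in WT and at 21.6, 17.3, 17.5, 16.3 and 13.8 CPM in Klk6+. Every Klk6+ mouse was below every WT mouse, and the log2 fold change was -0.69 ± 0.11 (adjusted p = 0.00019). WT 4, the highest WT mouse for most members, was the lowest WT mouse for Pttg1. In the same libraries the skeletal muscle, macrophage and fibroblast markers also fell, and their part in the fall of Pttg1 was not tested. Espl1 (chr15:102296266-102324357, plus strand) stood at 8.15, 10.3, 6.52, 11.7 and 10.4 CPM in WT and at 11.1, 13.3, 14.2, 14.2 and 13.8 CPM in Klk6+. Klk6+ 1 lay below WT 4 here, and the rise was 0.51 ± 0.14 (adjusted p = 0.00863). Without Klk6+ 3 and Klk6+ 5, a choice made after seeing that they lay apart from the other Klk6+ libraries on the second principal component, Espl1 was not called (0.43, adjusted p = 0.0517), and 36 members were called higher. Neither gene shares exonic bases with another annotated gene.

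**Figure D3:**
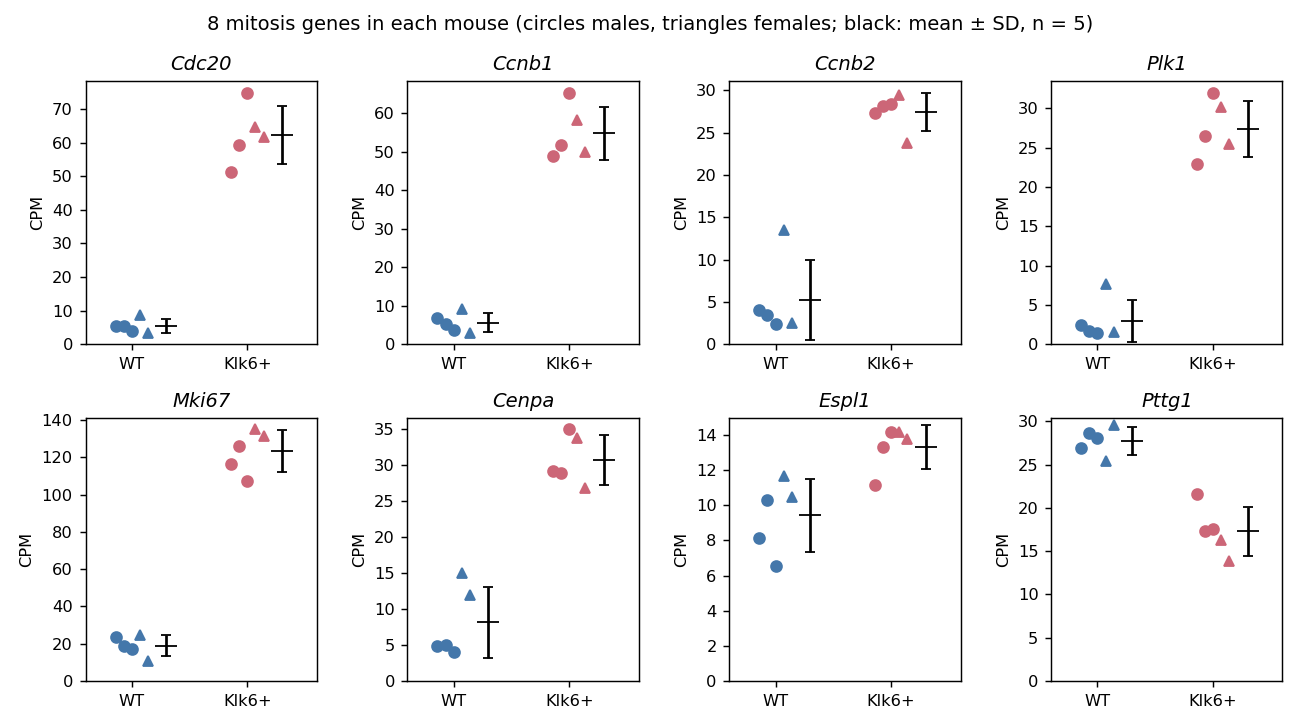
CPM of 8 mitosis genes in each mouse (vertical axes from 0; circles males, triangles females; black marks mean ± SD, n = 5 per genotype). Cdc20, Ccnb1 and Mki67 are well separated, WT 4 stands out for Ccnb2 and Plk1, the WT females for Cenpa, Espl1 overlaps, and Pttg1 is lower in Klk6+ (13.8 to 21.6 CPM) than in WT (25.4 to 29.6 CPM).

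Genes of cytokinesis rose in 6 of 6 cases, with a median of 2.04. Racgap1, a part of centralspindlin, stood at 10.5, 9.56, 9.03, 20.3 and 8.54 CPM in WT and 43.4, 46.5, 54.4, 54.7 and 46.9 CPM in Klk6+ and rose by 2.11 ± 0.22 (adjusted p = 1.17e-05). Ect2, the exchange factor that centralspindlin recruits to activate RhoA, stood at 5.47, 5.03, 4.07, 6.44 and 3.76 CPM and 26.6, 30.4, 38.8, 33.3 and 33.1 CPM and rose by 2.71 ± 0.17 (adjusted p = 7.43e-07), the steepest of the group. The centralspindlin motor gene Kif23 stood at 4.98, 6.57, 4.72, 9.98 and 5.52 CPM and 16.4, 18.3, 20.01, 16.3 and 19.9 CPM. It rose by 1.54 ± 0.19 (adjusted p = 4.92e-05), the smallest rise of the 38 genes after that of Espl1, and its genotypes were 1.63-fold apart at their closest. The scaffold gene Anln rose by 1.96 ± 0.18, the microtubule bundler Prc1 by 1.82 ± 0.26 and the motor gene Kif20a by 2.24 ± 0.27. Over 5% of exonic bases are shared with another gene for Kif20a, Prc1, Ccna2, Cdc25c and Plk1 as well as Ube2c, so single values of these genes are less certain.

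Levels of different genes were compared as FPKM, the deposited value scaled to transcript length. In WT skin Pttg1 stood alone at 43.8 FPKM, and the next gene, Ube2c, at 6.19. The remaining members ran from 5.64 FPKM for Cenpa to 0.297 for Cenpe. In Klk6+ skin the highest were Ube2c at 41.4, Cdc20 at 34.0, Birc5 at 30.1 and Pttg1 at 27.3 FPKM. The lowest were Cenpf at 1.53 and Espl1 at 1.79 FPKM. Cdc20 moved from rank 10 in WT to rank 2, and Espl1 from rank 28 to rank 37. Neighbours in these orders seldom differed beyond their spread. Of 37 neighbouring pairs, the ranges over 5 mice were apart for 1 in WT (Pttg1 above Ube2c) and for 1 in Klk6+ (Cdc25c above Cenpe).

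**Figure D4:**
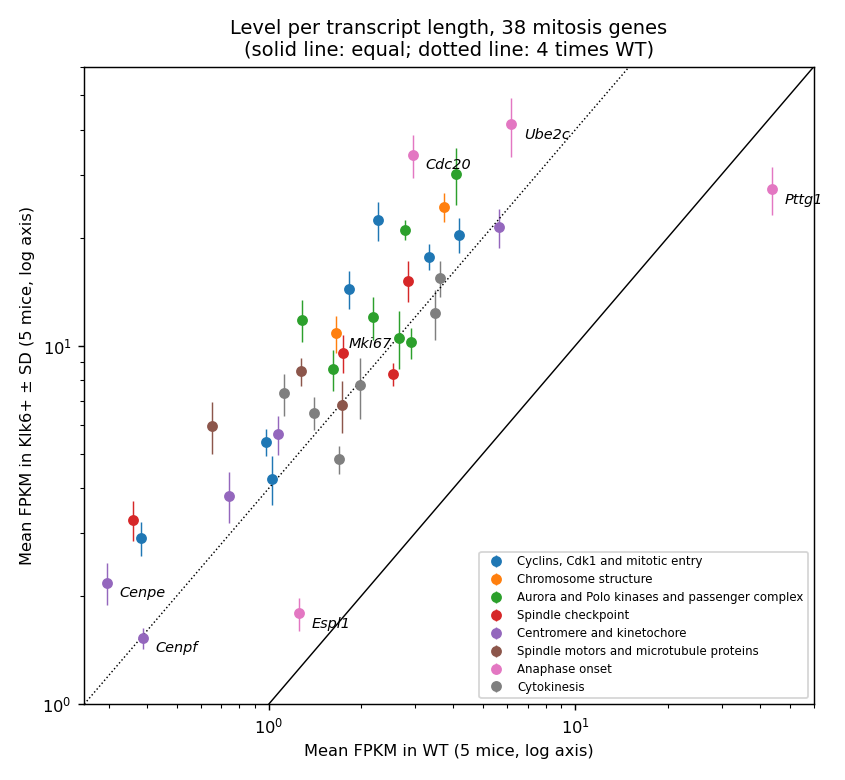
Mean FPKM of each mitosis gene in Klk6+ (vertical axis, log scale, bars SD) against its mean in WT (horizontal axis, log scale), 5 mice each, coloured by role. Most genes lie along or above the dotted line of 4 times the WT level, while Espl1 is just above the solid line of equal level and Pttg1 is below it.

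The genotype difference was present in each sex. In males 37 members were called higher (33.4% of all genes) and in females 36 (31.2% of all genes), with Pttg1 called lower in each. In either direction 64.4% of all genes were called in males and 59.6% in females. The female value of Espl1 was 0.34 ± 0.23 (adjusted p = 0.221). A genotype-by-sex interaction was called by edgeR for 0 of the 38 genes and for 0 of the 14861 tested (0%). At unadjusted p below 0.05 there were 1 member of 38 and 1410 genes (9.49% of all genes). The member was Cenpa, with a log2 fold change of 2.75 ± 0.16 in males and 1.17 ± 0.19 in females (interaction -1.58 ± 0.24, adjusted p = 0.132). DESeq2 called 261 of the 14861 genes and, of the 38 members, Cenpa alone (-1.59, adjusted p = 9.09e-06). The log2 fold change was higher in males for 28 of the 38 genes, and for only 6 when WT 4 was left out. WT 5, the lowest WT mouse for 25 of the 38 genes, is then the only WT female. This split thus rests on which WT female is used. With 2 females per genotype a modest difference between the sexes may not be detectable.

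The rest of the mitotic programme, given by a list of 51 other genes, moved with the members. On that list 49 genes rose and 1 fell (median log2 fold change 2.31). Shcbp1, needed at the midbody, rose by 3.17 ± 0.20, the kinetochore subunit gene Spc24 by 2.29 ± 0.15 and Bora, whose product lets Aurora A activate PLK1, by 2.48 ± 0.17. Wee1, whose kinase holds Cdk1 inactive, was the gene that fell (-1.14 ± 0.20, adjusted p = 0.000536). Fam83d, a spindle protein gene, had a value of 0.58 ± 0.28 (adjusted p = 0.0912).

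For the core subunits of the anaphase-promoting complex and its cofactor Fzr1, 11 of 15 genes rose and 1 fell, with a median of 0.37 and a largest rise of 1.01 for Anapc15. Fzr1, the cofactor that acts after Cdc20, rose by 0.81 ± 0.08 and Cdc27 by 0.66 ± 0.07, while Anapc5 fell (by 1.04 on the log2 scale). Under 6 of 21 alternatives 2 genes of this list were called lower. Their summed CPM was 866 ± 47.4 in WT and 821 ± 16.6 in Klk6+.

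Among regulators of cell cycle transcription, 14 of 22 genes rose and 6 fell (median 0.43). Mybl2, for B-MYB, rose by 3.63 ± 0.24 (adjusted p = 8.91e-07), from 1.38 ± 0.361 to 17.1 ± 3.34 CPM. E2f4 rose by 1.06 ± 0.08 and the E2F partner gene Tfdp1 by 1.15 ± 0.10. E2f6 (-1.55 ± 0.13), Rbl2, for the pocket protein p130 of resting cells (-0.87 ± 0.09), and Tfdp2 (-0.62 ± 0.10) fell. The constitutive MuvB gene Lin9 rose by 0.53 ± 0.17 and Lin54, which reads the CHR, by 0.64 ± 0.09, while Lin52 fell (-0.93 ± 0.18). These 3 MuvB genes were chosen for mention after their values were seen.

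All 32 genes of DNA replication and S phase rose, with a median of 1.5. Ccne1, for cyclin E1, rose by 3.68 ± 0.15, the ribonucleotide reductase gene Rrm2 by 2.73 ± 0.23 and the sliding clamp gene Pcna by 1.12 ± 0.10. Dividing the summed CPM of the mitosis genes by that of the replication genes gave 0.664 ± 0.237 for WT mice and 1.12 ± 0.0814 for Klk6+ mice (SD, 5 mice each). The ratio in WT 4 was 1.07, inside the Klk6+ range of 1.01 to 1.22, while the other WT mice lay between 0.473 and 0.647. The difference in this ratio was not tested.

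Of 6 G1 cyclin and kinase genes 3 rose and 1 fell. Cdk4 (1.07 ± 0.10), Cdk2 (1.18 ± 0.12) and Cdk6 (1.19 ± 0.24) rose, and the cyclin gene Ccnd2 fell (-0.79 ± 0.17). In females the value of Ccnd2 was -0.34 (adjusted p = 0.182). Ccnd1 had a value of -0.53 ± 0.22 (adjusted p = 0.0534), with -1.03 in males (adjusted p = 0.00024) and 0.22 in females (adjusted p = 0.288), and its interaction with sex was not called (1.25 ± 0.22, adjusted p = 0.172). Ccnd3 had a value of -0.12 ± 0.09 (adjusted p = 0.282). A second gene was called lower under 12 of 21 alternatives. Of 12 tested CDK inhibitor and antiproliferative genes 3 rose and 3 fell (median 0.02). The inhibitor gene Cdkn1a, for p21, rose by 1.12 ± 0.17 with Btg2 (0.52 ± 0.14) and Ccng2 (0.41 ± 0.14), while Ccng1 (-2.49 ± 0.16), Cdkn1c, for p57 (-2.06 ± 0.27), and Cdkn2c, for p18 (-0.56 ± 0.10), fell. Cdkn2a was too low to test.

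Markers of several cell types moved in the same libraries, and their levels do not count dividing cells. All 4 stress keratins rose (summed CPM 500 to 1149 in WT and 18240 to 31330 in Klk6+), as did 6 of 7 sebocyte genes (228 to 854 and 5219 to 8802). Fabp5, which keratinocytes also express, carried most of the sebocyte sum in Klk6+. Without Fabp5 that sum ranged over 128 to 538 CPM among WT mice and over 765 to 2550 CPM among Klk6+ mice. Of 7 basal keratinocyte genes 3 rose and 2 fell (3566 to 9626 and 13210 to 19200). Krt14 (mean 931 CPM in WT and 10050 CPM in Klk6+) and Krt5 (2530 and 5187 CPM) carried most of the Klk6+ sum. Itga6 rose less (0.60 ± 0.23). Krt15 (1916 and 218 CPM) and Col17a1 (867 and 335 CPM) fell, and Trp63 and Itgb4 were not called. Of 10 hair matrix and shaft genes 5 rose, with summed CPM of 17.2 to 42.8 in WT and 23.8 to 531 in Klk6+. Klk6+ 3 and Klk6+ 5 lay within the WT range for the hair sum, at 23.8 and 33.3 CPM. Their summed mitosis genes stood at 1442 and 1285 CPM (195 to 398 CPM in WT). Hair shaft keratins make up much of the sum in the other Klk6+ mice. Foxn1, a transcription factor gene of the same list, was above every WT mouse (2.78 to 6.57 CPM) in all Klk6+ mice, at 15.5 CPM in Klk6+ 3 and 22.4 CPM in Klk6+ 5, and rose by 2.25 ± 0.28 (adjusted p = 3.95e-05). It was the 1 hair gene of 10 above every WT mouse in both Klk6+ 3 and Klk6+ 5, and it made up most of their hair sums. Hoxc13, Shh, Krt35, Krt85 and Krt33a lay below every WT mouse in both, Krt35 at 0.395 and 0.335 CPM (0.556 to 7.02 CPM in WT). Neutrophil genes rose in 6 of 7 tested cases (35.5 to 60.3 and 78.7 to 449 CPM). Of 7 T cell genes 1 rose and 4 fell (24.4 to 38.5 and 15.1 to 19.5 CPM). Granulocyte precursor genes (2.12 to 5.56 and 1.92 to 7.47 CPM) and B and plasma cell genes (4.65 to 18.8 and 3.03 to 9.35 CPM) were low, with 2 of 5 and 3 of 6 testable. Among granulocyte precursor genes Mpo rose and Prtn3 was not called, and Ms4a3 was at 0 in WT. All macrophage (6), fibroblast (6), endothelial (6), skeletal muscle (8) and adipocyte (6) markers fell, muscle from 46460 to 76240 CPM down to 3147 to 6642 CPM. The part of these cell types in the rise of the mitosis genes was not tested.

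**Figure D5:**
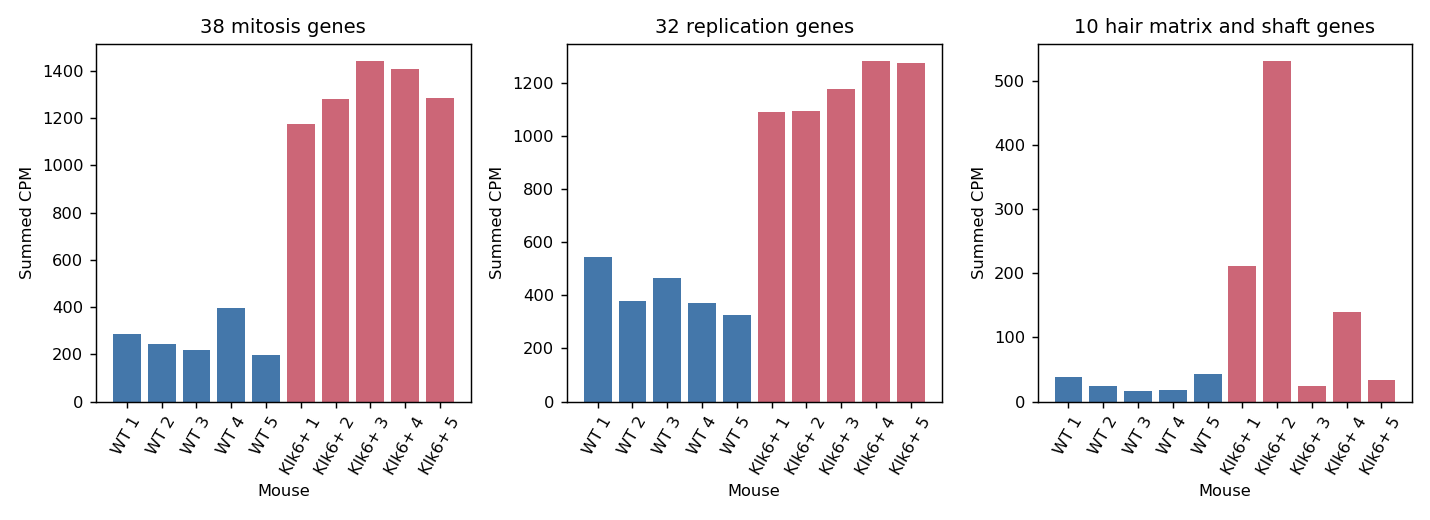
Summed CPM in each mouse (bars, vertical axes from 0; blue WT, red Klk6+) of the 38 mitosis genes, the 32 replication genes and the 10 hair matrix and shaft genes. The mitosis bars of all Klk6+ mice are above 1170. The hair bars, which include shaft keratins, range from 23.8 to 531 in Klk6+.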

How the data were processed

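PolyA-selected mRNA from snap-frozen skin was sequenced as single-end reads with a kit that does not mark strand, per the labels' protocols. For each mouse the deposited table lists whole-number read counts by gene symbol, and the authors' FPKM values stand beside them. The submitters' processing notes name Cufflinks 2.2.1, HTSeq, SAMtools and TopHat2, with mm10 and GRCm38 as builds, but no roles. The annotation used for counting and whether strand was used were not stated there. The counts were tested with edgeR 4.0.16 under R 4.3.3 (filterByExpr on genotype, minimum count 10; TMM scaling; genotype and sex in 1 quasi-likelihood fit; Benjamini-Hochberg over all genes). Sex-specific effects came from 4 genotype-by-sex means sharing 1 estimate of the spread. CPM are deposited counts over effective library size, and SE are model values. Alternatives used DESeq2 1.42.0, limma 3.58.1 (voom, and trend on log2(FPKM + 0.1) or log2(FPKM + 1)), other scalings and filters, and each mouse left out. Count tests were tried on simulated data in which 200 genes changed. In the real data 72.8% of genes were called, so the simulation does not cover scaling under such broad change. Nothing in the labels ties samples to litters or batches, and p-values measure the spread between these samples. The lowest chi-square per degree of freedom between libraries of a genotype was 38.9, so no library was a repeat. On the first principal component (80.2% of variance) WT libraries lay at -94.7 to -62.1 and Klk6+ at 63.9 to 88.8. Gene positions are from GENCODE M21 (GRCm38).

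The members and lists were chosen with earlier results of these data known. Single values of B and plasma cell markers are not reported here. Values in every mouse are given for the member of highest mean FPKM and of largest change in each of 8 role groups, the 3 of smallest change, those with overlap or called lower, and Mki67, Ccnb2 and others chosen after their values were seen. Of each pathway list, up to 3 genes per direction by smallest p are named, with those that moved against the rest where 5 or fewer.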

Additional observations from a re-analysis of the deposited data

Results flagged for a closer look

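Of 78 sets of 5 mice (each member, and the summed share, in each genotype), 6 had a mouse far from the other 4 by Dixon's test, which chance gives in about 1 set of 20. WT 4 was that mouse in 5 of them. Its level was 13.5 CPM for Ccnb2 (next highest WT mouse 4.07), 7.64 CPM for Plk1 (next 2.48), 7.76 CPM for Birc5 (next 3.67), 11.6 CPM for Ube2c (next 4.38) and 20.3 CPM for Racgap1 (next 10.5). The remaining one was Espl1, where Klk6+ 1 was lowest at 11.1 CPM and the next Klk6+ mouse stood at 13.3 CPM. Without WT 4 each of the 38 genes kept its direction and its call, and without Klk6+ 1 so did Espl1.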

How the results depend on the processing

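The counts of 37 members called higher and 1 lower were the same under 20 of 21 alternatives, and 797 of 798 values of single members under 21 alternatives kept their direction and side of the threshold, the exception being Espl1 as given above. The median of all genes moved only between -0.06 and 0.05 (log2) across alternatives. The median of the members was 1.89 on the log2(FPKM + 1) scale, whose pseudocount exceeds the WT level of 7 members, and 2.32 (without WT 5) to 2.72 (without WT 4) with single mice left out. The ratio of summed shares was 3.86 as summed FPKM, in which Pttg1 weighs more, and 4.4 (without WT 5) to 5.4 (without WT 4) with single mice left out. The interaction was called for 1 member by DESeq2 with all mice, and for 0 by edgeR with any mouse left out. DESeq2 was not rerun for it with mice left out. The medians of 2 small marker lists changed sign. Granulocyte precursors had a median of 1.67, and -0.0341 on the log2(FPKM + 1) scale. B and plasma cells had a median of -0.26, which ranged from -1.42 (without WT 1) to 0.0185 (without WT 4). No paired analysis was possible because replicate numbers only name the mice. Low members limit precision: Cdc25c had as few as 14 counts in a WT library.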

Other observations

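The WT 4 library stood apart from the other WT mice in the mitosis genes and less so in neighbouring lists. Its summed CPM was 398 for the 38 mitosis genes against 195 to 287 in the other WT mice, and 369 for the 51 other mitosis genes against 257 to 341. For the 32 replication genes it was 372, inside the range of the others (325 to 543), and for the 10 hair matrix and shaft genes it was 17.6, near the bottom of their range (17.2 to 42.8). Over the marker lists it was the highest WT library for adipocyte genes (1721 CPM against 1213 to 1644) and for B and plasma cell genes (18.8 CPM against 4.65 to 9.44). The latter are few counts, with 3 of 6 genes testable. For fibroblast genes WT 4 did not stand apart from the other WT female, at 11490 CPM against 11880 CPM in WT 5. The WT males stood at 21850 to 40760 CPM.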
